A study of Mus musculus with 8 samples.

Results

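The genes described here are 10 members of the mouse cytochrome P450 family 4: Cyp4a10, Cyp4a12a, Cyp4a12b, Cyp4a14, Cyp4a31, Cyp4a32, Cyp4f13, Cyp4f14, Cyp4f15 and Cyp4v3. A member was represented by the array probe whose annotation named that gene alone, and where a gene had several such probes the one with the highest mean over the arrays was kept. By this rule 8 of the 10 members had a probe, among 19938 genes with a probe of their own. Cyp4a32 shared its probe with Cyp4a31 and Cyp4a10, and Cyp4v3 shared its probe with its neighbour Klkb1, so neither had a value of its own. All 8 genes passed the filter on low values, which kept 11963 genes for testing.

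The samples were 4 liver tumors, labelled hepatocellular carcinoma, and 4 pieces of adjacent normal liver. Both tissues came from each of the male C57BL/6J mice M24, M48, M50 and M60. All 4 mice were on a normal diet. Each had received a vector based on adeno-associated virus (AAV) when 2 to 3 months old, and necropsy followed 18 months after injection. The vector's content is not given in the sources used here, and the samples analysed include no mouse without injection. Each piece was hybridised once, and each mouse contributed 1 tumor, so the p-values rest on 4 mice. They do not rest on each gene's own spread alone, since the fit draws its variance toward that of all tested genes.

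Cyp4 enzymes sit in the membrane of the endoplasmic reticulum and add a hydroxyl group to the far (omega) end of fatty acids. Among the Cyp4a genes, Cyp4a10 and Cyp4a14 are textbook targets of PPARalpha, the nuclear receptor that senses fatty acids in liver, and rise on fasting. The Cyp4a12 genes are expressed more in male mice, under control of androgens and of the male pattern of growth hormone. The Cyp4f enzymes act on leukotrienes, which are signals of inflammation, and on the side chain of vitamin E.

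The omega-hydroxylase genes were lower in the tumors almost throughout. Of the 8 genes with a probe of their own 7 fell and 0 rose, with falls from 0.64 for Cyp4f13 to 5.46 for Cyp4a14 in log2 units. Of all tested genes 15.7% fell and 16.3% rose. Rises and falls are those with an adjusted p from limma under 0.05, by the Benjamini-Hochberg method over the 11963 tested genes. Differences are tumor minus adjacent within a mouse on the log2 scale, averaged over n = 4 mice, and SE is the fit's standard error. Of the 8 genes 6 fell at least 2-fold, as did 2.88% of all tested genes, and the median difference of the 8 genes was -2.30 against 0.00 over all tested genes. In bulk tissue, fewer cells of a type and less RNA per cell cannot be told apart.

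Cyp4a14, a fatty acid hydroxylase that is among the genes most strongly induced by PPARalpha activators, had the largest difference. Its log2 level was 6.73, 5.62, 4.03 and 7.00 in the tumors of M24, M48, M50 and M60, against 10.24, 10.38, 12.67 and 11.93 in their adjacent liver. The highest tumor lay more than 3 log2 units below the lowest adjacent sample, and M50 held both the lowest tumor and the highest adjacent value. The difference was -5.46 (SE 0.747, adjusted p = 0.00294, limma), which leaves the tumors at 2.28% of the adjacent level. The tumor value of M50 lay under the filter value of 4.597, and the table has no detection calls, so the difference of -8.64 in that mouse is uncertain in size.

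Cyp4a10 is the other classic PPARalpha-inducible hydroxylase and lies next to Cyp4a14 on chromosome 4. It had levels of 6.79, 6.39, 5.44 and 6.49 in the tumors of M24, M48, M50 and M60, against 8.19, 8.47, 9.86 and 9.10 in adjacent liver. The groups did not overlap, and M50 again had the lowest tumor and the highest adjacent value. The fall was 6.17-fold on average (difference -2.63, SE 0.443, adjusted p = 0.00606, limma).

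Cyp4a31, a close relative of Cyp4a10, did not pass the test. Its levels were 7.08, 6.08, 5.63 and 6.26 in the tumors of M24, M48, M50 and M60, against 6.67, 6.25, 8.30 and 7.34 in adjacent liver. The groups overlapped, and the tumor of M24 lay above its adjacent liver by 0.41. The difference was -0.88 (SE 0.458, adjusted p = 0.194, limma), and it was -0.28 without M50. The probe shared by Cyp4a32, Cyp4a31 and Cyp4a10 had levels of 7.72, 6.81, 6.93 and 7.56 in tumors, against 9.16, 9.13, 10.79 and 9.95 in adjacent liver, in the same order of mice. It was lower in all 4 tumors, at -2.50 (SE 0.342), and passed in a fit over 14046 annotated probes with a limma adjusted p = 0.00285, where 15.4% of probes fell. How much of this came from Cyp4a32 cannot be told, because the probe also reads the other 2 genes.

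Cyp4a12a and Cyp4a12b are near-identical male-biased genes whose enzyme makes vasoactive products from arachidonic acid, and their probes may share signal. Cyp4a12a had levels of 6.64, 4.39, 5.55 and 6.75 in the tumors of M24, M48, M50 and M60, against 10.26, 6.12, 10.95 and 10.70 in adjacent liver. Cyp4a12b had 6.45, 5.06, 5.38 and 6.57 in the tumors, against 10.19, 6.96, 10.64 and 10.32 in adjacent liver. The adjacent liver of M48 stood apart from the other 3 for both genes, and for Cyp4a12a it lay below the tumors of M24 and M60. Both genes were lower in the tumor of all 4 mice, by 12.8-fold for Cyp4a12a (difference -3.67, SE 0.513, adjusted p = 0.0031, limma) and 12.7-fold for Cyp4a12b (difference -3.66, SE 0.469, adjusted p = 0.00237, limma). Without M48 the differences were -4.32 (adjusted p = 0.00105) and -4.25 (adjusted p = 0.000873). The tumor value of Cyp4a12a in M48, 4.39, also lay under the filter value.

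The 3 Cyp4f genes fell by 0.64 to 1.97, and their adjacent levels spread over 0.43 to 0.67 log2 units. Cyp4f14, which takes part in the omega-hydroxylation of vitamin E, had levels of 9.42, 8.38, 7.23 and 7.48 in the tumors of M24, M48, M50 and M60, against 10.43, 9.76, 10.13 and 10.08 in adjacent liver. The tumors spread over 2.19 log2 units and the adjacent samples over 0.67, with no overlap. The tumors averaged 25.4% of the adjacent level (difference -1.97, SE 0.317, adjusted p = 0.0051, limma). Cyp4f15 had 8.85, 9.24, 8.50 and 8.57 in the tumors, against 10.36, 9.93, 10.31 and 10.13 in adjacent liver, a fall of 1.39 (SE 0.178, adjusted p = 0.00237, limma). Cyp4f13 had the smallest and most even fall: its levels were 8.91, 8.79, 8.94 and 8.98 in the tumors, against 9.44, 9.31, 9.78 and 9.65 in adjacent liver. The difference of -0.64 (SE 0.0884, adjusted p = 0.00303, limma) ran from -0.84 in M50 to -0.52 in M48.

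Cyp4v3 is the mouse counterpart of human CYP4V2, a fatty acid hydroxylase mutated in a crystalline dystrophy of the retina. Its probe also reads Klkb1, the neighbouring gene for plasma prekallikrein, which hepatocytes secrete. The probe had levels of 10.29, 10.12, 9.92 and 9.99 in the tumors of M24, M48, M50 and M60, against 11.11, 10.53, 11.40 and 11.33 in adjacent liver. The groups did not overlap, and the difference was -1.01 (SE 0.178, limma adjusted p = 0.0068 in the fit over probes), but it cannot be assigned to either gene. The next measured genes on the 2 sides went both ways, with F11 of the clotting cascade higher by 1.59 and Fam149a lower by 0.63.

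**Figure D1:**
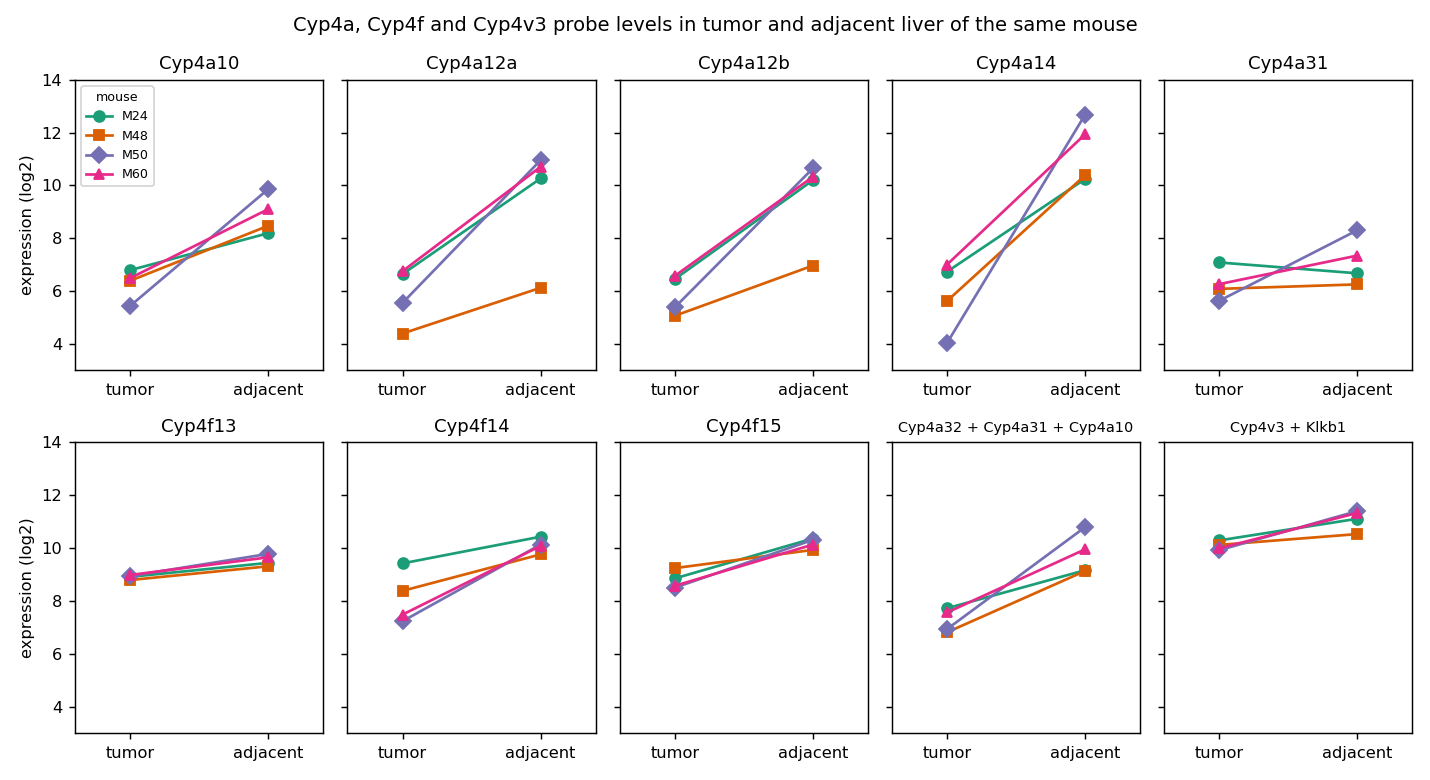
Log2 expression (vertical axis) of the 8 genes with a probe of their own and of the 2 shared probes, in tumor (left) and adjacent liver (right), with a line for each mouse. Lines run upward to adjacent liver in every panel except for M24 in Cyp4a31, and the adjacent value of M48 is far below the other 3 for Cyp4a12a (6.12) and Cyp4a12b (6.96).

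All tumors lay below all adjacent samples for 6 of the 8 genes, against 15.6% of all tested genes; the exceptions were Cyp4a12a and Cyp4a31. The tumor was below its own adjacent liver in all 4 mice for 7 of the 8 genes, against 25.3% of all tested genes, and above it in all 4 mice for 0, against 24.6%. Counted from the largest fall among the 11963 tested genes, Cyp4a14 ranked 1, Cyp4a12a 14, Cyp4a12b 15, Cyp4a10 39, Cyp4f14 79, Cyp4f15 193, Cyp4a31 479 (not called) and Cyp4f13 850. The order of the genes among themselves was not fixed from mouse to mouse. Between neighbours in that order the gap ran from 0.01 ± 0.18 (Cyp4a12a and Cyp4a12b, SD, n = 4 mice) to 1.78 ± 1.62 (Cyp4a14 and Cyp4a12a). Each of the 7 neighbouring pairs kept its order in only 2 or 3 of the 4 mice. The largest fall in a mouse was that of Cyp4a14 in M48 (-4.76), M50 (-8.64) and M60 (-4.93), and that of Cyp4a12b in M24 (-3.74).

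The mouse with the largest fall was M50 for every gene, and the mouse with the smallest fall differed between genes. M50 held the most negative difference for 8 of the 8 genes, for 42.6% of the 1874 genes that fell and 27.3% of all tested genes. The least negative difference was in M24 for 4 genes (Cyp4a10, Cyp4a14, Cyp4a31 and Cyp4f14) and in M48 for the other 4. For M24, M48, M50 and M60 the median difference over the 5 Cyp4a genes was -3.50, -1.90, -5.26 and -3.76. Over the 3 Cyp4f genes it was -1.01, -0.69, -1.81 and -1.56 in the same order. The genes share the same 8 RNA samples, so they do not count as separate observations of a mouse.

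M50 and M48 also stood at the ends of the adjacent levels. The adjacent liver of M50 had the highest of the 4 adjacent values for 5 of the 5 Cyp4a genes and 1 of the 3 Cyp4f genes, and for 24.8% of all tested genes. The tumor of M50 had the lowest tumor value for 5 of the 8 genes, for 36.4% of the genes that fell and for 25.6% of all tested genes. At the other end, the adjacent liver of M48 was the lowest adjacent sample for 6 of the 8 genes, against 34.2% of all tested genes. The exceptions were Cyp4a10 and Cyp4a14, for which M24 was lowest.

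**Figure D2:**
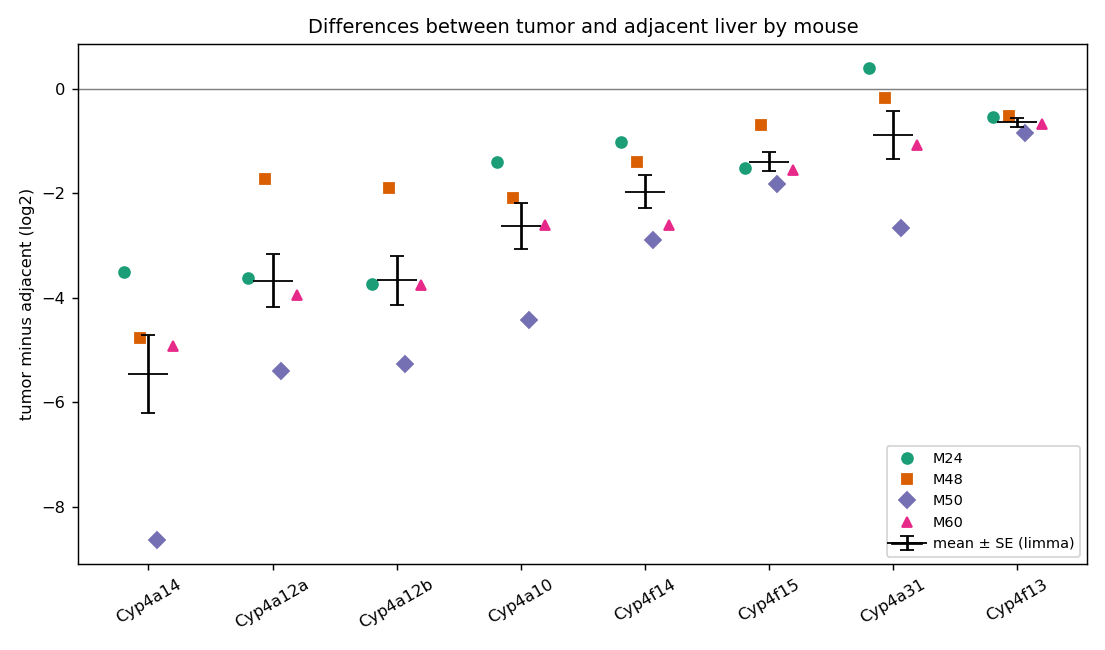
Tumor minus adjacent difference in log2 units (vertical axis) for each of the 8 genes, ordered by their mean, with a symbol for each mouse and the mean ± SE of the limma fit in black. M50 holds the lowest point for every gene, and the only point above 0 is that of M24 in Cyp4a31 (0.41).

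The Cyp4a members lie in a cluster on chromosome 4 and the Cyp4f members in one on chromosome 17, which also hold family members outside the 10 genes. Of 10 other Cyp4 genes 7 had a probe of their own and 3 passed the filter. Of these 3 genes 2 rose, 0 fell and 1 did not pass, while 16.3% of all tested genes rose and 15.7% fell. Cyp4f16, which also encodes a hydroxylase of the Cyp4f group, rose by 1.50 (SE 0.103, adjusted p = 0.000339, limma). Its levels were 6.90, 7.09, 6.67 and 6.55 in the tumors of M24, M48, M50 and M60, against 5.35, 5.85, 5.02 and 5.01 in adjacent liver. The rise was between 1.25 and 1.65 in every mouse and the groups did not overlap, so Cyp4f16 and Cyp4f15 moved in opposite directions in the same 4 tumors. Cyp4f18, a leukotriene hydroxylase known from neutrophils, lies outside the chromosome 4 and chromosome 17 clusters. It rose by 0.46 (SE 0.0876, adjusted p = 0.00927, limma) at levels near the filter value. The 7 neutrophil markers compared with it averaged 3.90 to 4.41 in tumors and 3.87 to 4.73 in adjacent liver, and 0 of the 2 tested ones passed. Their part in the rise of Cyp4f18 was not tested.

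In chromosomal order, the Cyp4a genes lie between Cyp4x1 and Cyp4b1, with Cyp4a31, which did not pass, between Cyp4a10 and Cyp4b1. Cyp4b1, a P450 best known from lung that activates foreign compounds, differed by 0.14 (SE 0.121, adjusted p = 0.427, limma). Cyp4x1 was below the filter and not tested, with means of 3.12 in tumors and 3.14 in adjacent liver. Of the 3 measured genes beyond Cyp4b1, Efcab14 stood at 0.03, Tex38 (below the filter) at 0.02 and Atpaf1 at 0.41, the last of which rose (adjusted p = 0.0402, limma). On the Cyp4x1 side Pdzk1ip1 rose by 1.44, while Tal1 (-0.05) did not pass. Stil lay below the filter and was not tested in the main fit. It was higher in the tumor of all 4 mice (0.47, adjusted p = 0.0292 in the limma fit with no filter). In the Cyp4f cluster the genes Cyp4f37, Cyp4f39, Cyp4f40 and the pseudogene Cyp4f41-ps lay below the filter with differences from -0.22 to -0.09. Cyp4f15 is separated from Cyp4f14 and Cyp4f13 by a group of zinc finger genes, of which Zfp871 fell by 0.88 and Zfp799 and Zfp870 did not pass at -0.16 each. Of the flanking genes of this cluster Akap8l fell by 0.73 (adjusted p = 0.00285, limma), while Wiz (-0.07), Rasal3 (0.23) and Zfp763 (-0.30) did not pass and Zfp472 and Zfp952 lay below the filter. The neighbours were chosen after the members' values were seen.

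**Figure D3:**
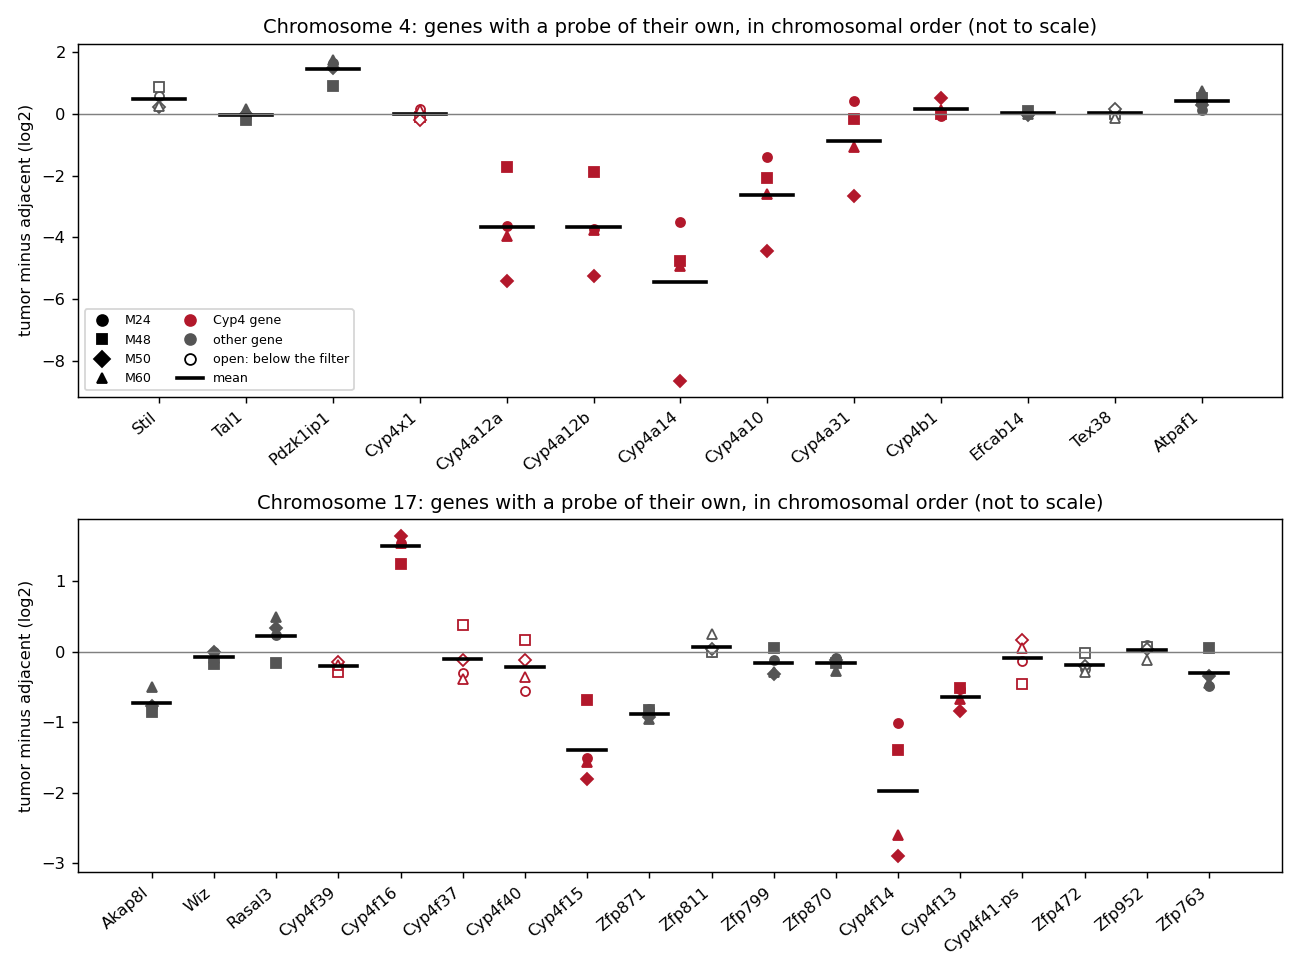
Tumor minus adjacent difference in log2 units (vertical axis) of genes with a probe of their own in the Cyp4a cluster (top) and the Cyp4f cluster (bottom), in chromosomal order without scale, with the 3 nearest measured genes on each side. Symbols are mice, black bars are means, red marks Cyp4 genes, grey marks other genes and open symbols mark genes below the filter; Cyp4f16 (1.50) lies above 0 while Cyp4f15, Cyp4f14 and Cyp4f13 lie below.

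The stretches before the transcription starts of Cyp4f genes are shown because these genes moved in opposite directions, together with that of Cyp4a32, the single Cyp4a gene with an entry. They are the 250 bases before the start from RefSeq (GRCm38.p6), printed 5′ to 3′ on the gene's strand, and for Cyp4f14 the most upstream of 4 annotated starts was taken. Capitals mark matches on either strand to AGGTCA, a nuclear receptor half-site, to the TATA box letters TATAAA, to the CCAAT box or to the STAT5 core TTCNNNGAA. The windows are chr17:32947362-32947611 (minus strand) for Cyp4f13, chr17:32917357-32917606 (minus strand) for Cyp4f14, chr17:32685409-32685658 (plus strand) for Cyp4f15, chr17:32536307-32536556 (plus strand) for Cyp4f16 and chr4:115600688-115600937 (plus strand) for Cyp4a32.
Cyp4f13: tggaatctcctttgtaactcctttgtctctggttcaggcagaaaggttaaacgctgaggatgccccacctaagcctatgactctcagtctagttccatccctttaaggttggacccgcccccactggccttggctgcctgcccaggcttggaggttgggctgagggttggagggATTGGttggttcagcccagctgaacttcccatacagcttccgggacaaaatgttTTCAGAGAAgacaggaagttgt
Cyp4f14: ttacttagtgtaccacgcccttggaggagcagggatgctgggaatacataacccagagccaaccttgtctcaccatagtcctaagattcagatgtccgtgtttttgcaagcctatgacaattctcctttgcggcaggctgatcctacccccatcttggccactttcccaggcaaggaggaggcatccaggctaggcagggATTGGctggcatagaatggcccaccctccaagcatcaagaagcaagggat
Cyp4f15: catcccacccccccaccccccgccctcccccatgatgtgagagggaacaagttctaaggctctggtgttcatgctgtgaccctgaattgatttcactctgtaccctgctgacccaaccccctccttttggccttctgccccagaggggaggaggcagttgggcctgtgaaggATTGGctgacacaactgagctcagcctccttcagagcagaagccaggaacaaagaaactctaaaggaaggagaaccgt
Cyp4f16: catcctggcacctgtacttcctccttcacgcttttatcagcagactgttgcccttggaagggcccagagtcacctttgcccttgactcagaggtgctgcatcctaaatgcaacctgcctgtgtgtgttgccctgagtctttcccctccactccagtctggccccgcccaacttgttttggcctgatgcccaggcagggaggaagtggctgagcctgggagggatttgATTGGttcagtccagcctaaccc
Cyp4a32: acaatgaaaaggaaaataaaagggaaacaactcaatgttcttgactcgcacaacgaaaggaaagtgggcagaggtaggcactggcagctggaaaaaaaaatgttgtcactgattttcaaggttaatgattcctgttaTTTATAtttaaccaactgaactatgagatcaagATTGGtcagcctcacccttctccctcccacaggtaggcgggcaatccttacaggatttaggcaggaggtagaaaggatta

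Each of these 5 windows held 1 match to CCAAT, on the reverse strand as ATTGG, as did 33.8% of all 32851 promoter windows of this length on either strand. Its first base lay 76 bases before the start in Cyp4f13, 50 in Cyp4f14, 78 in Cyp4f15, 23 in Cyp4f16 and 80 in Cyp4a32. Of the shown genes, Cyp4f13, Cyp4f14 and Cyp4f15 fell and Cyp4f16 rose, and all 4 held the match. The window of Cyp4v3, which is not shown, held 0 matches to any of the 4 motifs. Cyp4f13 also held 1 match to TTCNNNGAA (7.02% of all windows) and Cyp4a32 held 1 to TATAAA (12.4% of all windows). None of the 5 windows held the letters AGGTCA, which 14% of all windows did. The remaining Cyp4a members are Cyp4a10, Cyp4a12a, Cyp4a12b, Cyp4a14 and Cyp4a31.

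Other targets of PPARalpha were set beside the Cyp4a genes, since Cyp4a10 and Cyp4a14 share this regulator in normal liver. Of 36 listed genes 32 were tested, and 15 fell, 3 rose and 14 did not pass, with a median difference of -0.43. Among all tested genes 15.7% fell and 16.3% rose. Among those that fell were the fatty aldehyde dehydrogenase Aldh3a2 (-1.42, adjusted p = 0.000348, limma), the enoyl-CoA isomerases Eci2 (-1.22) and Ech1 (-0.66), and among those that rose the hormone gene Fgf21 (1.82, adjusted p = 0.00289, limma). The other 2 that rose, Plin2 of lipid droplets (0.74) and Txnip (0.59), are named after their values were seen. No gene of this list fell as far as Cyp4a10, Cyp4a12a, Cyp4a12b or Cyp4a14, and Acot1, the lowest at -1.65, did not pass. The adjacent liver of M50 was the highest adjacent sample for 26 of the 32 genes and that of M48 the lowest for 26, against 24.8% and 34.2% of all tested genes.

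Of the regulators themselves 22 of 26 listed genes were tested, and 11 fell, 1 rose and 10 did not pass, with a median of -0.41. The shares over all tested genes were 15.7% falling and 16.3% rising. Ppara fell by 0.29 (SE 0.0754, adjusted p = 0.0271, limma), but the groups overlapped and the call was lost with no replicate block (adjusted p = 0.214) and on leaving out any mouse (adjusted p from 0.0514 without M50 to 0.107 without M60). Its partner Rxra fell by 0.73 (adjusted p = 0.00162, limma). The growth hormone receptor Ghr fell by 1.23 (adjusted p = 0.000444, limma), as did the receptors for foreign compounds Nr1i3 (-1.77) and for bile acids Nr1h4 (-1.12). Without M24 7 of the regulators fell and without M60 6, and the 1 that rose, Ppard (0.54, named after its value was seen), was not called without M24, M50 or M60.

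Male-biased liver genes other than Cyp4a12a and Cyp4a12b were examined next. Of 18 listed genes 16 were tested, and 13 fell, 2 rose and 1 did not pass, with a median of -1.49. Among all tested genes 15.7% fell and 16.3% rose. Of the male-biased genes 8 fell when M50 or M60 was left out, 9 without M24 and 14 without M48. The falls over all tested genes also varied, with 1170 without M50, 1071 without M60, 1317 without M24 and 1720 without M48. The adjacent liver of M48 was the lowest adjacent sample for 15 of the 16, against 34.2% of all tested genes, but the gap varied. For C6 it lay at 10.26 against 10.37 to 10.58 in the other 3. The sulfotransferase Sult2a8 had levels of 6.73 in the adjacent liver of M48 and at least 11.57 in the other 3 adjacent samples, and Cyp4a12a was likewise lowest there. The bile acid hydroxylase Cyp7b1 fell by 4.12 (adjusted p = 0.00119, limma) and C8b of complement by 1.23. Selenbp2 rose by 1.15, as did Serpina12 by 3.02, the latter named after its value was seen. The fatty acid elongase Elovl3 fell by 4.03 (adjusted p = 0.0276, limma). Its tumor values in M48 (2.98) and M50 (3.65) and its adjacent value in M48 (3.57) lay under the filter value, so the size of this fall is uncertain. The call of Elovl3 was lost with no replicate block (adjusted p = 0.096) and on leaving out M24 (0.0649), M50 (0.0535) or M60 (0.0912).

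Over the 8 arrays, the profile most like that of Cyp4a12a by Pearson's r was that of Il1rap, an interleukin receptor subunit (r = 0.998), followed by Cpox, Dnajc28, Sult2a8 and Fahd2a (r = 0.99 each). All 5 had their lowest adjacent value in M48, which follows from picking them by likeness to Cyp4a12a and is no separate observation. For Cyp4a14 the closest were Pcnp and Letm1 (r = 0.996 each), then Ndufb11, Adgra3 and Zfp654 (r = 0.99 each). Their differences ran from -1.19 to -0.43, far smaller than that of Cyp4a14. For Cyp4f14 they were the urea cycle gene Otc (r = 0.99), Ugt2a3, Tmem86b and Fxyd1 (r = 0.98 each) and F13b (r = 0.97). These correlations are a description, and the genes were picked as the highest over all other tested genes. For Cyp4a14 the points fall into a tumor and an adjacent cluster, as can occur for other genes whose groups do not overlap. For Cyp4f14 the groups did not overlap either, but the tumors spread from 7.23 to 9.42, close to the lowest adjacent value of 9.76. For Cyp4a12a the adjacent liver of M48 lay among the tumors, so a high r with it also reflects that sample.

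P450 enzymes draw electrons from partner proteins and need heme. Of 15 listed partner and heme synthesis genes 13 were tested, and 9 fell, 1 rose and 3 did not pass, with a median of -0.46. Alas1, the first enzyme of heme synthesis in liver, fell by 1.07 (adjusted p = 0.00236, limma), cytochrome b5 type B (Cyb5b) by 0.86 and Urod by 0.42, while the reductase Cyb5r3 rose by 0.64. Without M24 or without M60 5 of these genes fell. Of 14 tested enzymes and transporters that act on the hydroxylated products 8 fell and 3 rose, with a median of -0.59. Beside both lists, 15.7% of all tested genes fell and 16.3% rose. Aldh3a2, Eci2 and Ehhadh stand in this list and in that of PPARalpha targets, Abcd2 also in that of female-biased genes, and the rises included the acyl-CoA synthetase Acsl5 (1.16) and the peroxisomal transporter Abcd2 (2.46).

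**Figure D4:**
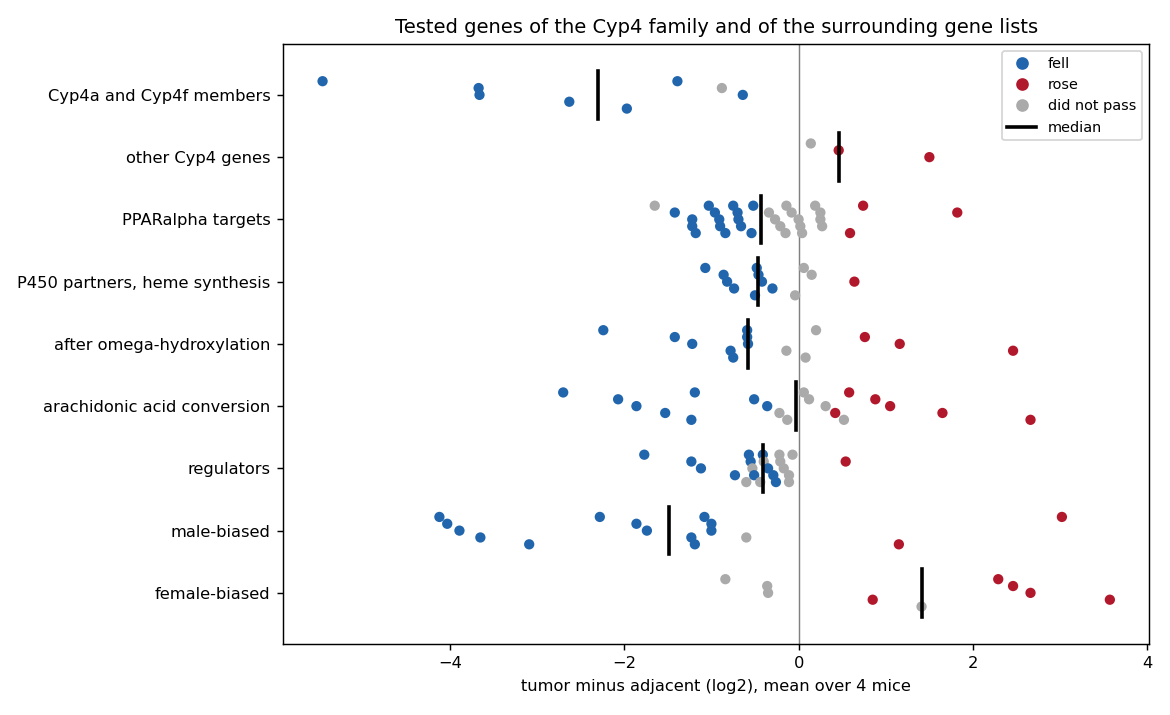
Mean tumor minus adjacent difference in log2 units (horizontal axis) of every tested gene of the 8 Cyp4a and Cyp4f genes and of 8 surrounding lists (rows), coloured by whether the gene fell, rose or did not pass, with black bars at the medians. The Cyp4 members have a median of -2.30, the other Cyp4 genes of 0.46, and the male-biased genes of -1.49.

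Markers of cell types were measured in the same samples. Beside the counts below, 16.3% of all tested genes were higher and 15.7% lower in tumors. The 10 hepatocyte markers with a probe averaged 12.85 to 13.05 in tumors and 12.95 to 13.07 in adjacent liver, and high levels of these genes were thus present in all 8 samples. Of these 10 markers 1 was higher (Apoa1, 0.32) and 2 were lower (Apoa2, -0.32, and Hnf4a, -0.35) in tumors. Of 10 macrophage markers 1 was higher (Cd68, 0.98) and 3 were lower (Marco, -1.29, Timd4, -0.94, and Clec4f, -0.65), with means of 7.68 to 9.14 in tumors and 7.31 to 9.41 in adjacent liver. Endothelial markers averaged 7.89 to 8.30 in tumors and 7.29 to 7.57 in adjacent liver, with 4 of 9 higher and 0 lower. Stellate cell and fibroblast markers averaged 7.98 to 8.18 in tumors and 7.00 to 7.94 in adjacent liver, with 4 of 9 higher and 0 lower, and cholangiocyte markers 5.44 to 6.14 in tumors and 4.70 to 4.82 in adjacent liver, with 3 of 5 tested higher and 0 lower. The adjacent liver of M48, where Cyp4a12a and Cyp4a12b were low, had the highest adjacent mean of macrophage markers (9.41, the lowest being 7.31), stellate cell and fibroblast markers (7.94 against 7.00), lymphocyte markers (5.13 against 4.40) and neutrophil markers (4.73 against 3.87). The part of these markers in the results was not tested, and log2 array values have no 0 by which a marker could be called absent.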

How the data were processed

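Expression was measured in 8 samples, a tumor and adjacent liver from each of 4 mice, with 0.2 ug of total RNA on 1 Affymetrix mouse gene array each. The authors deposited 1 table of log2 values for 28874 probes, with the log base taken from the range of 1.918 to 14.49. Array medians ran from 4.888 to 5.006, so the values were used as normalized. The submitters' processing notes name MAS5, and the normalization, detection calls and scan batches behind the table are not stated there. The number of arrays limits the precision.

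Probes were named by the array annotation, with 21789 probes naming 1 gene, 1621 several and 5464 none, and 21698 gene identifiers matched the GRCm38.p6 table. The 40% of genes with the lowest mean were left out (filter value 4.597). The 11963 remaining genes were fitted with limma 3.58.1 in R 4.3.3 (lmFit, eBayes with a mean-variance trend, mouse as a block, two-sided, 3 residual and 3.643 prior degrees of freedom). The fit was tested on simulated data. The pairing comes from the design text, and deviations from group means correlated at 0.0986 to 0.421 within mice and -0.378 to 0.189 between mice. The 12 alternatives covered the block, each mouse left out, the filter, the variance model, normalization and the probe rule. Named genes are all members and other Cyp4 genes, up to 4 genes with the smallest p of each other list, and Ppara, Rxra, Ephx2 and Elovl3. Por, also on that rule, had no probe naming it alone and is not reported here. The 5 genes most like 3 members were named by Pearson's r. The members and lists were chosen with earlier results of these data known. Figures used Python 3.11.15 and matplotlib 3.10.9.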

Additional observations from a re-analysis of the deposited data

Results flagged for a closer look

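The adjacent liver of M48 stood apart from the other 3 adjacent samples for Cyp4a12a, at 6.12 against 10.26 to 10.95. The same held for Cyp4a12b, at 6.96 against 10.19 to 10.64. In both groups of 4 values the gap to the nearest sample, as a share of the whole range (0.856 and 0.878), was above Dixon's critical value for 4 samples. Such a gap was found in 2 of 30 groups examined, and chance alone gives about 1 in 20. Cyp4a12a and Cyp4a12b are near-identical genes, and whether their probes read the same transcripts was not tested.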

How the results depend on the processing

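All 96 values of the 8 members under the 12 alternatives kept their direction and their side of the threshold. The alternatives on the block, the filter, the variance model and the probe rule left every member's difference unchanged. Direction could therefore change only on leaving out a mouse or with another normalization. The count of members that fell was 7 under each alternative, with no replicate block as well. Differences ran from -6.11 to -4.40 for Cyp4a14, -4.32 to -3.10 for Cyp4a12a and -3.03 to -2.03 for Cyp4a10, and the adjusted p of Cyp4a31 from 0.1 to 0.532. Of 357 values of the 30 other named genes 10 lost the call (limma), 5 of Ppara and 5 of Elovl3, and Elovl3 lost it also with robust eBayes (adjusted p = 0.0566), and 0 reversed. Leaving out each mouse gave 5 to 8 falling partner and heme genes, 5 to 8 falling arachidonic acid genes, 8 to 14 falling male-biased genes, 0 to 1 falling female-biased genes, 6 to 9 falling regulators and 0 to 1 rising ones. Over all tested genes it gave 1238 (without M60) to 1759 (without M48) rises and 1071 (without M60) to 1720 (without M48) falls, and 1170 falls without M50. With the lowest 60% of genes dropped, 0 other Cyp4 genes rose, since Cyp4f16 and Cyp4f18 were then not tested, and with quantile normalization 0 regulators rose. The cause of the other changes was not tested. Fewer samples enter each fit without a mouse. Levels under the filter value, as for Cyp4a14 in the tumor of M50, limit what can be said of the size of a fall, and the probes of near-identical genes cannot separate them.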

Other observations

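Other enzymes of arachidonic acid, the substrate shared by many Cyp4 enzymes, went both ways in the tumors. Of 27 listed genes 20 were tested, and 8 fell, 6 rose and 6 did not pass, with a median difference of -0.03. Among all tested genes 15.7% fell and 16.3% rose. When M60 was left out, 5 of the listed genes fell. The P450 epoxygenase Cyp2j9 fell by 2.07 (SE 0.273, adjusted p = 0.00263, limma). Of the other Cyp2j genes Cyp2j5 fell by 1.53 and Cyp2j6 rose by 0.88, both named after their values were seen. The soluble epoxide hydrolase Ephx2, which breaks down epoxides made by such enzymes, fell by 1.19 (SE 0.147, adjusted p = 0.00209, limma). Prostaglandin E synthase (Ptges) rose by 1.05 and Ptgr1, which inactivates prostaglandins and leukotrienes, rose by 1.65 (adjusted p = 0.000635, limma).

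Female-biased genes were examined beside the male-biased Cyp4a12 genes. Of 18 listed genes 9 were tested, and 5 rose, 0 fell and 4 did not pass, with a median difference of 1.41 over these 9. The shares over all tested genes were 16.3% rising and 15.7% falling. Genes low in both tissues were not tested. When M48 was left out 1 gene fell, Cyp3a44, which is named after its values were seen. Cyp17a1 of steroid synthesis rose by 3.57, Lpl by 2.66 and Prom1 by 2.29 (adjusted p = 0.000583, 0.00121 and 0.000444, limma). The groups of Prom1 overlapped. Its adjacent values in M24 (4.48), M50 (3.89) and M60 (4.24) lay under the filter value, so the size of its rise is uncertain.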
